A study of Mus musculus with 6 samples.

Results

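The Ly6 surface protein family was followed through 8 genes, taken from the table by symbol with earlier results of these data known: Ly6g, Ly6c1, Ly6c2, Ly6a, Ly6e, Ly6i, Ly6d and Ly6k. They are 8 of the 56884 genes in the deposited table, 7 of them had a read in at least 1 library, and 6 were abundant enough to be tested. RNA sequencing was done on mouse neutrophils sorted from bone marrow on the surface proteins CD101 and Ly6G, which mark mature cells. After the sort, 3 libraries came from cells cultured with DKK1 (Dickkopf-1, a secreted protein that blocks Wnt receptors) and 3 from cells cultured without it, called control below. By their description both groups share the sort and the culture, and the comparison asks how Ly6 transcripts differ with DKK1. Neutrophil markers in the DKK1 libraries went against this label, as given below. The sources used here do not give the mouse strain and age, the DKK1 dose or the culture time.

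Ly6 proteins are small, cysteine-rich molecules folded into a three-fingered domain, and most are held on the outer cell membrane by a glycosylphosphatidylinositol (GPI) anchor. In the mouse they serve as surface labels of blood cell types: Ly6G of granulocytes, Ly6C of monocytes and several lymphoid cells, and Ly6A (Sca-1) of blood stem cells. Several of their genes are induced by interferons.

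The 8 genes lie together on chromosome 15 (chr15:74762056-75159126, GRCm38/mm10, GENCODE M21), a span of 397 kb, and each is annotated as protein coding. Promoter windows are shown for Ly6g, Ly6c2 and Ly6c1, members of like sequence but unlike level, and for Ly6a2 beside them, so that their starts can be compared. Each window is 300 bases of RefSeq sequence (GRCm38.p6), 250 before and 50 after an annotated start, read 5′ to 3′ on the gene's strand. Capitals mark GAGGAA, the core letters bound by the myeloid factor PU.1, and TATAAA, the TATA box, on either strand. Of the 8 members, 3 had a promoter entry and Ly6a, Ly6e, Ly6i, Ly6d and Ly6k are named only.
Ly6g (chr15:75155079-75155378, plus strand): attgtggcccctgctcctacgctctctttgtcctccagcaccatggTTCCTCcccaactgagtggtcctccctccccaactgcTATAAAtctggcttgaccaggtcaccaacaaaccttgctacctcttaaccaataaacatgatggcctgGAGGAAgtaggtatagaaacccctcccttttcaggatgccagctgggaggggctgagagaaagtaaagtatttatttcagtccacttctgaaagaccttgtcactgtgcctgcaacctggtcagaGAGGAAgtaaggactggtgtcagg
Ly6c2 (chr15:75111922-75112221, minus strand): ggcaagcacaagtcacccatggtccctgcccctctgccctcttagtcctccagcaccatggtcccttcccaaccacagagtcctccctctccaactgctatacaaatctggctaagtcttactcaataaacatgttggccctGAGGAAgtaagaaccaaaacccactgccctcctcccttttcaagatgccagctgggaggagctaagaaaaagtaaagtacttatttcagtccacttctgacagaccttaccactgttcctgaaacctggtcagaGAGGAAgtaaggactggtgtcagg
Ly6c1 (chr15:75048788-75049087, minus strand): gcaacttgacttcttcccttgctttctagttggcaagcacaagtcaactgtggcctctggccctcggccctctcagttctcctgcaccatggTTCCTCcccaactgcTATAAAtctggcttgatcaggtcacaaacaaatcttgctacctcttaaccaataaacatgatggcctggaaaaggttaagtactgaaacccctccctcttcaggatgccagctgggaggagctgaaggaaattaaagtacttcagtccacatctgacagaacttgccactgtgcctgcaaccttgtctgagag
Ly6a2 (chr15:75135079-75135378, minus strand): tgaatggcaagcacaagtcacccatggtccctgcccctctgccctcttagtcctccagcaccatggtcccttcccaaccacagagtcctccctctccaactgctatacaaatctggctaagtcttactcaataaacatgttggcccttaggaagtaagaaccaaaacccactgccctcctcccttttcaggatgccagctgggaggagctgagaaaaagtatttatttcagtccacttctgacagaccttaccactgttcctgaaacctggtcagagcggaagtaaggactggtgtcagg

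The Ly6g window held GAGGAA at 3 places, beginning at positions -204 (minus strand), -99 and 27 relative to the start, and TATAAA at -167. The Ly6c2 window held GAGGAA at -108 and 27. The Ly6c1 window held GAGGAA at -158 (minus strand) and TATAAA at -143. The Ly6a2 window matched none of the 5 motifs searched, although it was 95.1% identical to that of Ly6c2, with 142 bases in the longest shared run. Against the other annotated start of Ly6c2 it was 75.5% identical. The Ly6g and Ly6c2 windows shown were 72.5% identical. This was the highest among the pairs of their annotated starts, and the lowest was 38.9%. GAGGAA stood in 28.3% and TATAAA in 13.6% of 32851 mouse promoter windows of this length. The other motifs searched, on both strands, were GAAA, any pair of bases and GAAA (the interferon-stimulated response element core), TTCNNNGAA (the interferon gamma activated site) and TTGCNNAA (the C/EBP core). They stood in 3.44%, 8.30% and 10.8% of all windows, and none of them matched in the 4 windows shown, where no match overlapped another. Ly6g, Ly6c2 and Ly6c1 each have a second annotated start, and the other Ly6g window held the C/EBP core at -232 (minus strand). These letters describe the windows only.

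Recovered totals were 5188116 to 8749228 reads in DKK1 libraries and 8688911 to 9851961 reads in control libraries, and 15610 to 16751 genes were detected per library. DKK1 library 2 was the shallowest and stood apart from the others of its group: the chi-square per gene on reads was 12.4 and 11.4 against DKK1 libraries 1 and 3, which differed from each other by 2.96, and control pairs differed by 2.15 to 2.21. The labels do not say whether libraries of a group are separate mice or cultures. The p-values thus reflect only the spread between libraries, which may be technical. The libraries were checked against neutrophil markers, and the DKK1 libraries went against their label: 14 of 15 markers were lower and 1 did not pass the test. Over all genes tested, 36.1% were called lower and 35.1% higher. The 15 neutrophil markers summed to normalized counts of 8003 to 8585 in DKK1 libraries, against 735436 to 760844 in control libraries. S100a9, a calcium-binding protein of neutrophils, averaged 628 ± 95 in DKK1 libraries and 287287 ± 6877 in control libraries, a 444-fold lower level. S100a8, its partner, was 125-fold lower. Cd101, the sort marker, averaged 3.53 ± 2.31 and 5098 ± 178 (SD, n = 3 each), 1293-fold lower with DKK1. Erythroid markers were lower for 7 of 9 tested, beside 36.1% over all genes tested. Of the 7, 3 reached the filter on low values only with the control libraries. The erythroid list summed to 315 to 1500 in DKK1 libraries and 1666 to 1820 in control libraries, and the highest DKK1 sum was in library 2. The drop in neutrophil markers accompanied every Ly6 result below, and its part in them was not tested.

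With DKK1, 5 of the 6 tested Ly6 genes fell: Ly6g, Ly6c2, Ly6e, Ly6i and Ly6a. Ly6d did not pass the test, and Ly6c1 and Ly6k were too low to be tested. Over all 16265 genes tested with limma (Benjamini-Hochberg adjusted p under 0.05), 36.1% were called lower and 35.1% higher, 71.2% in all. The median log2 change was -4.82 over the 6 tested members and -0.03 over all genes tested. Ly6a and Ly6i reached the filter on low values only with their control libraries, which favoured a lower direction. The count and median therefore only describe the members that passed the filter. Reads of the 8 genes made up 0.00195%, 0.00106% and 0.00211% of all reads in DKK1 libraries 1 to 3, against 0.0856%, 0.0878% and 0.0849% in control libraries 1 to 3. All DKK1 libraries lay below all control libraries in this share. Without DKK1 library 2 the same number, 5, was called, with log2 changes of -7.70 for Ly6g, -6.03 for Ly6c2, -5.78 for Ly6e and -3.00 for Ly6a. In bulk RNA, fewer cells of a type and less RNA per cell cannot be told apart.

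**Figure D1:**
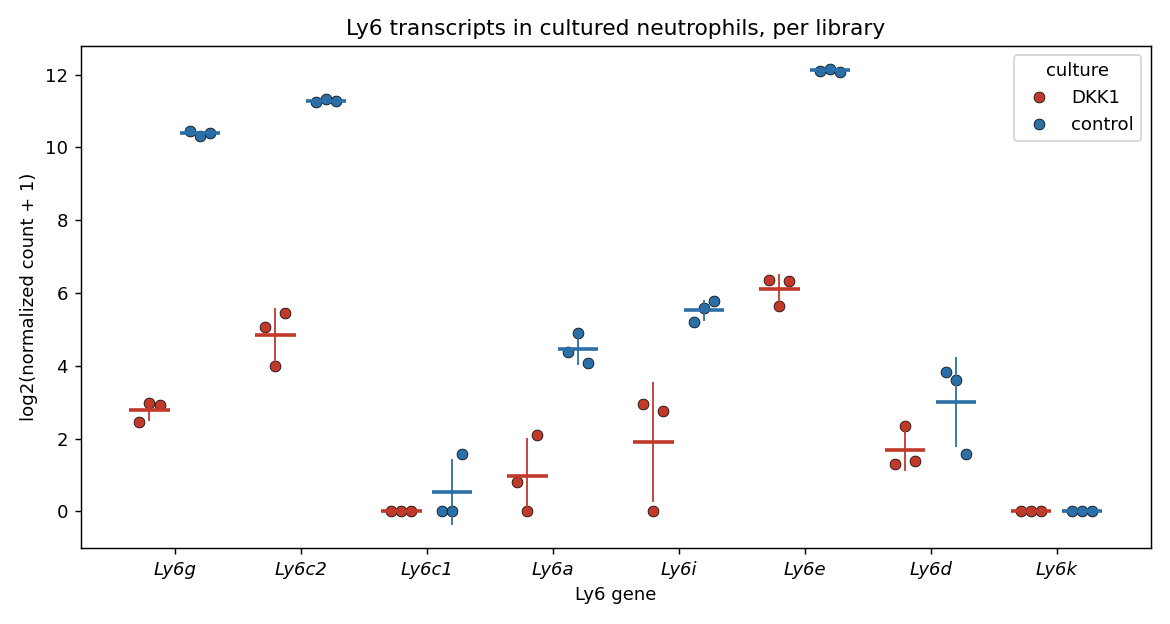
Level of each Ly6 gene in every library, as log2(normalized count + 1), with DKK1 libraries (red) left of control libraries (blue); bars are group means and lines are ± SD (n = 3 each). Groups are separate for Ly6g, Ly6c2, Ly6e, Ly6a and Ly6i, overlap for Ly6d, and lie at or near 0 for Ly6c1 and Ly6k.

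Ly6g (ENSMUSG00000022582.5) encodes the granulocyte antigen on which the cells had been sorted. It lies at chr15:75155240-75159126 on the plus strand, and its principal transcript is 941 bases in 4 exons. Normalized counts were 4.47, 6.87 and 6.53 in DKK1 libraries 1 to 3, against 1410, 1265 and 1338 in control libraries 1 to 3. The 3 DKK1 libraries were all under 7 and the groups did not overlap, as was the case, with DKK1 lower, for 37.4% of all genes tested (73.9% in either direction). The DKK1 values rest on 19 reads in all, against 3774 reads in control. Ly6g averaged 5.96 ± 1.30 in DKK1 and 1338 ± 72.7 in control (SD, n = 3 each), 232-fold lower with DKK1 (95% counting interval 148 to 386). Counting intervals here cover counting error alone. The log2 change was -7.60 (SE 0.18), with an adjusted p of 9.385e-10 by limma, and only 108 genes, 0.664% of those tested, had a lower one. Ly6g was the 1463rd most abundant gene by its control mean and the 11745th by its DKK1 mean.

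Ly6c2 (ENSMUSG00000022584.15) encodes Ly6C2, a surface antigen of classical monocytes that other myeloid and lymphoid cells also carry. It lies at chr15:75108158-75111970 on the minus strand, with a principal transcript of 822 bases in 4 exons. Normalized counts were 32.8, 15.1 and 42.5 in DKK1 libraries 1 to 3, against 2457, 2583 and 2474 in control libraries 1 to 3. The groups did not overlap, and DKK1 library 2 was the lowest of its group. Ly6c2 averaged 30.1 ± 13.9 in DKK1 and 2504 ± 68.4 in control (SD, n = 3 each), which was 77.1-fold lower with DKK1 (95% counting interval 63.7 to 94.2). The log2 change was -6.45 (SE 0.31) with an adjusted p of 9.584e-08 by limma. Other monocyte and macrophage markers did not move as a block: of 17 tested, 5 were higher, 7 were lower and 5 did not pass. Over all genes tested, 35.1% were higher and 36.1% lower. Of the 17, 6 reached the filter only with the control libraries, as did 5 of the 12 called. Those 5 were Ccr2, C1qa, C1qb, C1qc and Cd163, all called lower, so these calls lean on the filter. The whole list of 18 monocyte and macrophage markers summed to normalized counts of 15548 to 15682 in DKK1 libraries and 5027 to 5315 in control libraries. Cd68, a lysosomal protein of macrophages, averaged 10121 ± 286 in DKK1 and 902 ± 43.7 in control, whereas Csf1r, the receptor of their growth factor, averaged 2073 ± 141 in DKK1 and 2754 ± 41.4 in control. C1qa had 0 reads in DKK1 and 60 reads in control, Cd163 had 0 and 33 reads, and Timd4 had 0 and 8 reads. Markers of plasmacytoid dendritic cells, which also carry Ly6C, summed to 67.8 to 93.4 in DKK1 and 124 to 154 in control. Of the 6 tested, 1 was higher, 2 were lower and 3 did not pass. The 1 called higher, Zbtb46, reached the filter only with the DKK1 libraries. Klk1 had 0 reads in both groups, and Siglech had 0 reads in DKK1 and 3 reads in control. The part of these cell types in the Ly6c2 values was not tested.

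Ly6c1 (ENSMUSG00000079018.11, chr15:75044018-75048830, minus strand) encodes Ly6C1, which in mice marks endothelial cells and some T cells. It had 0 reads in all 3 DKK1 libraries and in control libraries 1 and 2, and 2 reads (a normalized count of 1.97) in control library 3. It was below the floor of 3 reads per group, a mean normalized count of 0.911 in DKK1 and 1.06 in control, so a difference was not detectable at this depth. The division of reads between Ly6c1 and Ly6c2 is uncertain. Their coding sequences were 97.7% identical (384 of 393 aligned bases), and 32.6% of the 50-base stretches of the Ly6c2 transcript also occurred in Ly6c1. Of 5 endothelial markers tested, 3 were higher and 2 were lower, beside 35.1% higher and 36.1% lower over all genes tested. The list summed to 7015 to 8433 in DKK1 and 273 to 317 in control. Most of that sum was Vwf, the clotting factor carrier of endothelium and platelets, at 7578 ± 717 in DKK1 and 10.5 ± 2.02 in control. Pecam1, an adhesion protein of endothelium and leukocytes, was 6.41-fold lower, at 37.5 ± 7.21 in DKK1 and 239 ± 13.8 in control. Emcn and Sox17, which define endothelium, had 0 reads in both groups, and Cdh5 had 0 reads in DKK1 and 1 read in control.

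Ly6e (ENSMUSG00000022587.16) encodes a broadly expressed, interferon-induced Ly6 protein that is known in mice as the receptor of syncytin-A in the placenta. It lies at chr15:74955051-74959905 on the plus strand, and its principal transcript is 2281 bases in 4 exons. Normalized counts were 81.2, 49.5 and 79.2 in DKK1 libraries 1 to 3, against 4437, 4586 and 4352 in control libraries 1 to 3. The groups did not overlap, and DKK1 library 2 was again the lowest. Ly6e averaged 69.96 ± 17.8 in DKK1 and 4458 ± 118 in control (SD, n = 3 each), which was 60.6-fold lower with DKK1 (95% counting interval 53.4 to 69.1). The log2 change was -6.01 (SE 0.17) with an adjusted p of 2.88e-09 by limma. No 50-base stretch of its transcript occurred in another annotated gene, and its coding sequence was 47.1% to 52.3% identical to the other members.

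Ly6a (ENSMUSG00000075602.11, chr15:74994877-74998031, minus strand) encodes Sca-1, the antigen used to isolate mouse blood stem cells, also carried by activated T cells and endothelium. Normalized counts were 0.745, 0 and 3.27 in DKK1 libraries 1 to 3, against 19.8, 29.0 and 15.8 in control libraries 1 to 3. It was low throughout, with 5 reads in DKK1 and 60 reads in control, and the groups did not overlap. Ly6a averaged 1.34 ± 1.71 in DKK1 and 21.5 ± 6.81 in control (SD, n = 3 each), which was 14.0-fold lower (95% counting interval 5.68 to 44.7). The log2 change was -3.49 (SE 0.60) with an adjusted p of 0.0005957 by limma. Of 10 stem and progenitor markers tested, 3 were higher and 7 did not pass, with a median log2 change of -0.44. Over all genes tested, 35.1% were higher and 36.1% lower. Of the 10, 5 reached the filter only with the control libraries, none of them called. The summed counts of the list were 953 to 1239 in DKK1 and 65.9 to 77.8 in control. The largest parts of the DKK1 sum were Procr and Kit. Procr, a receptor of blood stem cells and endothelium, averaged 819 ± 190.1 in DKK1 and was at 0 in control, at least 805-fold higher against a floor of 3 reads over the control group. It reached the filter only with the DKK1 libraries. Kit, the stem cell factor receptor, was 7.37-fold higher. T and NK cell markers summed to 1.37 to 5.96 in DKK1 and 57.1 to 92.2 in control. Of 4 tested, 3 were lower and 1 did not pass, beside 36.1% lower over all genes tested. Cd3d averaged 0.497 ± 0.861 in DKK1 and 58.1 ± 14.5 in control. Cd3g had 0 reads in DKK1 and 16 reads in control, and Cd8a had 0 and 2 reads. All 4 reached the filter on low values only with the control libraries. Whether these cells contributed to Ly6a was not tested.

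Ly6i (ENSMUSG00000022586.12, chr15:74979534-74983430, minus strand) encodes a close relative of Ly6A found on macrophages and bone marrow cells. The Ly6i and Ly6a coding sequences were 86.3% identical. Normalized counts were 6.71, 0 and 5.72 in DKK1 libraries 1 to 3, against 36.2, 46.9 and 54.2 in control libraries 1 to 3. The groups did not overlap, and the spread within DKK1 came from library 2, which had no read. Ly6i averaged 4.14 ± 3.62 in DKK1 and 45.8 ± 9.03 in control (SD, n = 3 each), which was 9.49-fold lower (95% counting interval 5.63 to 17.1). The log2 change was -3.63 (SE 0.73) with an adjusted p of 0.001632 by limma. Without DKK1 library 2 it was -2.68 with an adjusted p of 7.671e-05.

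Ly6d (ENSMUSG00000034634.8, chr15:74762056-74763620, minus strand) encodes a marker of lymphoid progenitors committed to the B lineage and of keratinocytes. Normalized counts were 1.49, 4.12 and 1.63 in DKK1 libraries 1 to 3, against 13.2, 11.2 and 1.97 in control libraries 1 to 3. The groups overlapped, because control library 3 lay within the DKK1 range. Ly6d had 7 reads in DKK1 and 24 reads in control, a log2 difference of -1.31 (SE 0.68), and did not pass the test (adjusted p = 0.1123 by limma). Without control library 3 the log2 change was -2.03 and it passed (adjusted p = 0.01434, the smallest over the alternatives, whose largest was 0.3253). Of 14 B cell markers tested, 2 were higher, 10 were lower and 2 did not pass, beside 35.1% higher and 36.1% lower over all genes tested. The list summed to 191 to 223 in DKK1 and 1615 to 1747 in control. Ighm, the IgM heavy chain, averaged 49.3 ± 16.1 in DKK1 and 1458 ± 70.8 in control, whereas Il7r, the interleukin-7 receptor of lymphocytes, averaged 107 ± 30.3 in DKK1 and 12.7 ± 1.52 in control, 7.97-fold higher. Vpreb3 had 0 reads in DKK1 and 18 reads in control. Of the 14 markers, 9 reached the filter only with the control libraries, as did 7 of the 12 called. The only epithelial marker tested, the adhesion protein Cdh1, was higher, at 8.85 ± 1.90 in DKK1 and 0.657 ± 1.14 in control. Cdh1 reached the filter only with the DKK1 libraries, so this call leans on the filter. Epcam, Krt5, Krt8 and Krt14 were at 0 in both groups. The part of B or epithelial cells in the Ly6d values was not tested. Ly6k (ENSMUSG00000044678.12, chr15:74796874-74799986, minus strand), known for its role in mouse sperm and fertility, had 0 reads in all 6 libraries. It was the only member whose gene overlapped another annotated gene, the antisense Gm17189.

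Levels were set in order as normalized counts per kb of the principal transcript. In DKK1 libraries the order was Ly6c2 (36.6 ± 16.9), Ly6e (30.7 ± 7.80), Ly6g (6.33 ± 1.38), Ly6i (3.58 ± 3.13), Ly6d (3.25 ± 1.99), Ly6a (1.40 ± 1.79), with Ly6c1 and Ly6k at 0. In control libraries it was Ly6c2 (3047 ± 83.2), Ly6e (1954 ± 51.9), Ly6g (1421 ± 77.3), Ly6i (39.6 ± 7.81), Ly6a (22.5 ± 7.13), Ly6d (11.8 ± 8.03), Ly6c1 (0.778 ± 1.35) and Ly6k at 0 (SD, n = 3 each). Ly6c2, Ly6e and Ly6g led in this order by mean in both groups. In DKK1 libraries the values of Ly6c2 and Ly6e overlapped, and so did those of each neighbouring pair between Ly6g and Ly6a. In control libraries the only neighbours to overlap were Ly6a and Ly6d, beside Ly6k and Ly6c1 at or near 0. The place of Ly6e depends on the length used, since its coding transcripts run from 431 to 2281 bases.

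Ratios within a library were used to compare how far the abundant members fell. They depend on scaling between libraries only through the 1 added to each value. That addition weighs most on Ly6g, which had 6, 5 and 8 reads in DKK1 libraries 1 to 3. The log2 ratio of Ly6e to Ly6g was 3.91, 2.68 and 3.41 in DKK1 libraries 1 to 3, against 1.65, 1.86 and 1.70 in control libraries 1 to 3. It averaged 3.33 ± 0.62 in DKK1 and 1.74 ± 0.11 in control, a difference of 1.60. The log2 ratio of Ly6c2 to Ly6g was 2.63, 1.03 and 2.53 in DKK1 libraries, against 0.80, 1.03 and 0.89 in control libraries, a difference of 1.16. Here DKK1 library 2 sat beside control library 2, while the other DKK1 libraries lay above all control libraries. Without DKK1 library 2 this difference was 1.67, that of Ly6e to Ly6g was 1.92 and that of Ly6e to Ly6c2 was 0.25. With a pseudocount of 10 the differences were 0.37 for Ly6c2 to Ly6g, 0.57 for Ly6e to Ly6g and 0.20 for Ly6e to Ly6c2. The log2 ratio of Ly6e to Ly6c2 was 1.28, 1.65 and 0.88 in DKK1 libraries, against 0.85, 0.83 and 0.81 in control libraries, a difference of 0.44. Each of the 3 ratios gave p = 0.10 in a two-sided exact permutation test (0.10 after Benjamini-Hochberg adjustment over the 3), the smallest that 3 against 3 libraries allow, so none could pass 0.05.

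**Figure D2:**
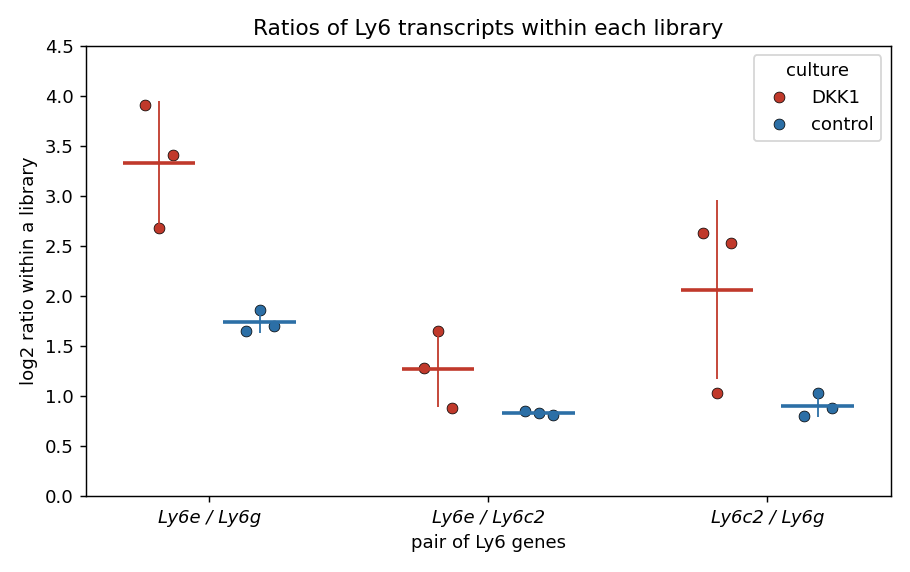
Log2 ratio of 2 Ly6 genes within each library (1 added to each value), DKK1 libraries (red) left of control libraries (blue); bars are means and lines are ± SD (n = 3 each). Ly6e over Ly6g is above the control values in all 3 DKK1 libraries, whereas for Ly6c2 over Ly6g DKK1 library 2 lies at 1.03, level with control library 2.

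Among other members of the Ly6/uPAR superfamily, which share the same fold, 8 of 10 tested were lower with DKK1 and 2 did not pass (6 were called without DKK1 library 2), beside 36.1% lower over all genes tested. Of the 8, 6 reached the filter only with the control libraries, which favoured a lower direction. The other 2 were Plaur and Lypd6b. The list held 43 genes, with 42 entries in the table, of which 28 had no read in any library, and the median log2 change of the 10 tested was -2.18. Cd177, a GPI-anchored neutrophil protein, averaged 2.65 ± 2.88 in DKK1 and 2551 ± 21.8 in control, an 840.2-fold lower level. Plaur, the urokinase receptor, averaged 516 ± 68.3 in DKK1 and 3881 ± 12.3 in control, 7.72-fold lower. Lypd6b, which overlaps a non-coding RNA gene on the opposite strand, was 3.08-fold lower.

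Ly6a2, listed in the table as a long non-coding RNA, had normalized counts of 4.47, 0 and 0.817 in DKK1 libraries 1 to 3, against 739, 742 and 718 in control libraries 1 to 3. It was thus nearly absent from the DKK1 libraries, 345-fold lower, with a log2 change of -8.42 (SE 0.53) and an adjusted p of 5.84e-07 by limma. Its identifier is not in GENCODE M21, so its position was not checked, and the entry of the same symbol that M21 places in the cluster had 0 reads in all libraries. Whether the promoter window above belongs to the counted transcript was not tested. Ly6g2, the gene most like Ly6g in coding sequence (86.3% identical), had no read in DKK1 libraries, against 20.9, 39.1 and 22.7 in control libraries, at least 30.0-fold lower against a floor of 3 reads over the DKK1 group. Ly6g2 was singled out for its likeness to Ly6g after its values were seen.

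**Figure D3:**
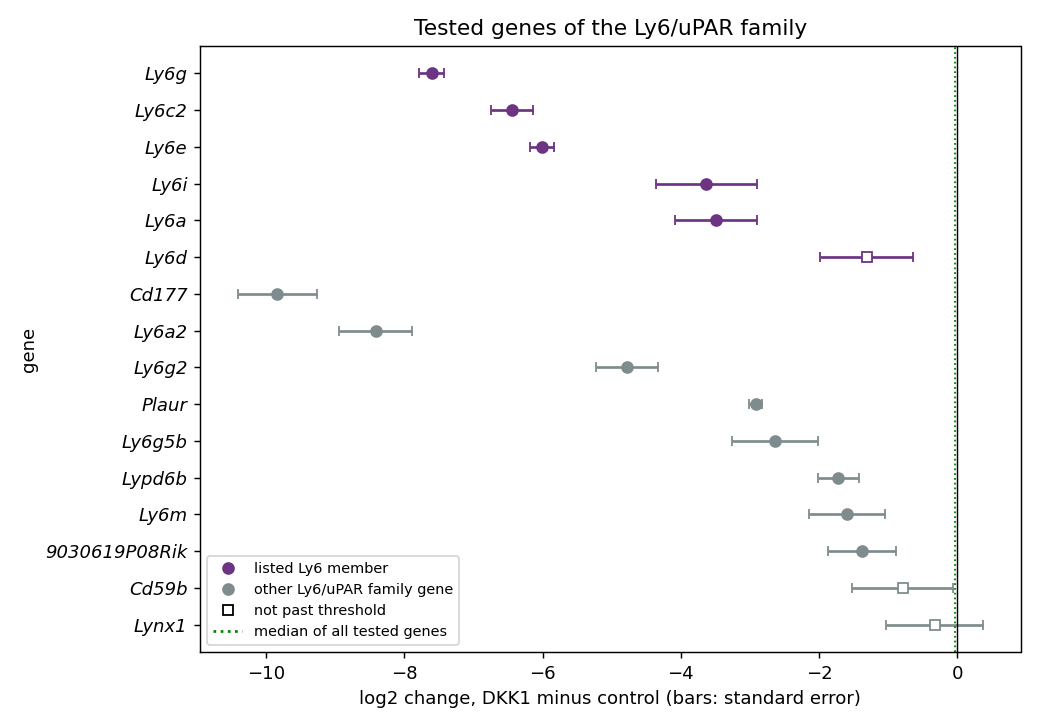
Log2 change (DKK1 minus control) with its standard error for the tested genes of the Ly6/uPAR family; purple marks the listed Ly6 genes, grey the others, open squares the genes not past the threshold, and the dotted line the median of all genes tested (-0.03). Points run between -9.84 for Cd177 and -0.33 for Lynx1, to the left of the dotted line.

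The cluster was then read by position. Within the 397 kb span, 12 of 25 annotated genes were tested, of which 11 were lower and 1, Ly6d, did not pass. Of the 11, 8 reached the filter on low values only with the control libraries, so the filter favoured a lower direction for them. The other 3 were Ly6g, Ly6c2 and Ly6e. The share called lower over all genes tested was 36.1%. Only Ly6m was a protein-coding gene other than the members that could be tested there, at a mean of 0.497 in DKK1 and 3.19 in control (log2 change -1.60, SE 0.55, adjusted p = 0.02703 by limma). The other tested genes were non-coding or pseudogenes. Gm39556, a long non-coding RNA between Ly6m and Ly6e, had a mean of 1.06 in DKK1 and 639 in control (log2 change -8.46, SE 0.41, adjusted p = 1.023e-07 by limma). Gm28068, a long non-coding RNA between Ly6a and Ly6c1, was at 0 in DKK1 and had a mean of 46.9 in control. In the 500 kb on each side, 3 genes could be tested per side, and on each side 1 was higher, 1 was lower and 1 did not pass. On the Ly6d side these were Jrk (log2 change 1.42), Adgrb1 (-3.99) and Lynx1 (-0.33). On the Ly6g side they were Top1mt (2.34), Ly6g2 (-4.78) and Zfp41 (0.32). Several were low: Jrk averaged 2.54 in DKK1 and 0.366 in control, Top1mt 7.23 and 0.732, and Lynx1 1.89 and 2.93. Jrk and Top1mt reached the filter only with the DKK1 libraries, and Ly6g2 only with the control libraries.

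**Figure D4:**
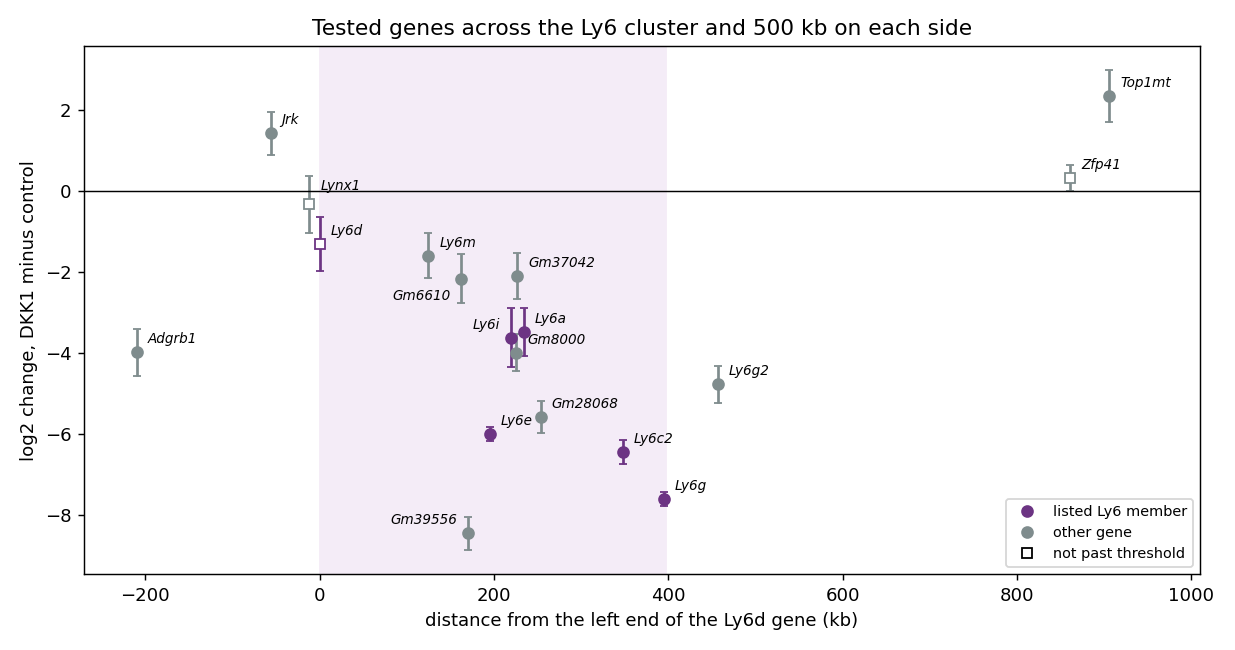
Log2 change (DKK1 minus control, ± SE) of each tested gene against its distance in kb from the left end of Ly6d, with the span of the Ly6 genes shaded, the listed members in purple and genes not past the threshold as open squares. The 11 genes called inside the span, 8 of which reached the filter only with the control libraries, lie below 0, and those on both sides lie above and below it. Jrk and Top1mt, called higher outside the span, reached the filter only with the DKK1 libraries.

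The nearest profiles to the abundant members were sought as the smallest Euclidean distance over the 6 libraries, on log2(normalized count + 1) centred on the control mean. Those of Ly6g included Rgs2 (distance 0.289) and Gda (0.377). Rgs2, a regulator of G protein signalling, averaged 61.7 ± 12.7 in DKK1 and 11294 ± 131 in control. Those of Ly6c2 were Arap3 (0.127), Oas1g (0.279) and Zfp217 (0.397). Those of Ly6e were Tgfbi (0.153), Cass4 (0.156) and Lilra6 (0.176). These distances are a description, since the group difference dominates each profile.

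The machinery that makes the GPI anchor was measured beside the proteins that carry it. Of 31 tested genes of anchor synthesis, 11 were higher, 12 were lower and 8 did not pass, with a median log2 change of -0.10. These counts are near the shares over all genes tested, 35.1% higher and 36.1% lower. With libraries scaled to the same total, 15 of the 31 rose, 10 fell and their median was 0.43. Over all 16265 genes tested, that scaling gave 7098 higher and 4742 lower. Without DKK1 library 2 the median of the anchor synthesis genes was 0.17, so its sign was not stable. Pigb, a mannosyltransferase of the pathway, averaged 65.4 ± 17.3 in DKK1 and 3363 ± 150.3 in control, 51.0-fold lower, but it overlaps Ccpg1 on the opposite strand and reads of the pair cannot be told apart without strand. Pigx was 5.37-fold lower, Pigs 2.80-fold lower and Pgap2 1.65-fold lower. Dpm1 was 1.88-fold higher, Dpm2 1.72-fold higher, Pigq 1.37-fold higher and Pigm 1.36-fold higher. The median of all genes tested moved by 0.47 under equal total reads, so smaller changes depend on the scaling. Dpm1, Pigq and Pgap2 also overlap other annotated genes, and their values carry the same limit.

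Of 19 other GPI-anchored proteins tested, 7 were higher, 10 were lower and 2 did not pass, with a median log2 change of -0.64. Over all genes tested, 35.1% were higher and 36.1% lower. Of the 19, 3 reached the filter on low values only with the control libraries, as did 2 of the 17 called. Cd52, a small leukocyte glycoprotein, averaged 318 ± 34.4 in DKK1 and 5818 ± 81.6 in control, 18.4-fold lower. Bst1, an ADP-ribosyl cyclase, was 3.21-fold lower and Cd24a, a small sialoglycoprotein, 1.59-fold lower. Cd14, the co-receptor for bacterial lipopolysaccharide, averaged 2645 ± 605 in DKK1 and 550 ± 29.0 in control, 4.58-fold higher. Cd48, a ligand of lymphocyte receptors, was 8.98-fold higher and the proteoglycan Gpc1 2.60-fold higher. Cd52, Bst1, Cd48 and Gpc1 overlap other annotated genes, so reads of these pairs may be mixed.

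Interferon-induced genes, the group to which Ly6e and Ly6a belong, were counted without the Ly6 members. Of 35 tested, 2 were higher, 29 were lower and 4 did not pass, beside 35.1% higher and 36.1% lower over all genes tested. Their median log2 change was -4.57, against -0.03 over all genes tested. Of the 35, 4 reached the filter on low values only with the control libraries, as did 2 of the 31 called. Oasl2, an antiviral oligoadenylate synthetase relative, averaged 25.6 ± 1.72 in DKK1 and 9510 ± 78.3 in control, 369-fold lower. Oas3 was 139-fold lower, Trim30a 33.0-fold lower and Rsad2 5.01-fold lower. The exceptions were Cxcl10, a chemokine, at 413 ± 130 in DKK1 and 91.1 ± 18.4 in control, whose gene overlaps Art3 on the opposite strand, and Bst2 (tetherin), at 130.3 ± 36.7 in DKK1 and 40.1 ± 7.83 in control.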

How the data were processed

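Total RNA was sequenced in 6 libraries labelled as mouse neutrophils, 3 with DKK1 and 3 control, grouped by sample title. The authors deposited normalized counts for each gene, per the file headers, a linear signal of at least 0. The genome build was mm10, per the submitters' processing notes; the sources used here do not give the aligner, counter, annotation, strandedness or normalization factors. The table has 3 other per-sample columns that match no sample, and they were not used. Every value (100%) was a whole multiple, within 0.001 reads, of the value of 1 read in its library, so reads were recovered. They hold no molecular identifiers.

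Groups were compared with limma 3.58.1 under R 4.3.3 (trend, robust) on log2(normalized count + 1), a scale that understates changes of low genes. Genes entered when 3 or more of the 6 libraries reached a normalized count of 1. Two-sided p-values were adjusted over all genes tested (Benjamini-Hochberg, threshold 0.05). Folds are ratios of recovered reads pooled per group, with 95% exact counting intervals; against 0 reads the floor of 3 reads per group was used. Alternatives were a replicate block, other pseudocounts, filters and scalings, limma without trend or robust fitting, each library left out, and edgeR 4.0.16 and DESeq2 1.42.0 on recovered reads. The limma steps were tested on simulated data with far fewer and smaller changes than here, so that test does not cover changes of this number or size.

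The members and lists were chosen with earlier results of these data known. Beside the members and Cd101, the text names protein-coding genes of the cluster, the 3 nearest profiles, up to 4 genes of highest mean per list and direction, and up to 2 per marker list; other genes were named after their values were seen. A gene that this rule selects is not reported here. Positions come from GENCODE M21, matched without version (51948 identifiers, 35 with version), and promoters from RefSeq GRCm38.p6. Identities are from global alignments in Biopython 1.88.

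Same-numbered DKK1 and control libraries did not deviate together across genes (r of -0.005, 0.007 and 0.017), so no pairing was assumed.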

Additional observations from a re-analysis of the deposited data

How the results depend on the processing

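The 5 Ly6 genes called lower remained lower and past the threshold under each of 17 alternatives. Their log2 changes ran between -7.91 and -6.40 for Ly6g, -6.75 and -5.93 for Ly6c2, -6.13 and -5.48 for Ly6e, -4.99 and -1.46 for Ly6a, and -4.84 and -2.0 for Ly6i; for Ly6a and Ly6i the ends came with pseudocounts of 0.1 and 10. Ly6d ran between -2.03 and -0.90 when each library was left out, and it passed the threshold without control library 3. With a filter of 10 in 3 libraries, 5 other Ly6/uPAR genes were tested and 5 called, in place of 8. The difference in the Ly6e to Ly6g ratio was 0.57 with a pseudocount of 10, in place of 1.60; the cause of these was not tested. Leaving out each library, the Ly6e to Ly6c2 difference ran between 0.25 and 0.63, the members called between 5 and 6, and all genes called between 10892 and 11546. With the replicate block, 5 members and 11447 genes in all were called (5630 higher, 5817 lower), and no call of a member changed. Under equal total reads 7098 genes were higher and 4742 lower, against 5709 and 5873. Of 227 alternative values, 224 were counted as unchanged. For a gene this meant the same direction and call, and for a count of genes a set fold limit. For a ratio it meant a move of no more than the larger SD within a group. That limit was wide for Ly6c2 to Ly6g, with an SD of 0.89 in DKK1. Its difference of 1.16 fell to 0.37 with a pseudocount of 10 and was still counted as unchanged. The shallow DKK1 library 2 and the few reads behind Ly6a, Ly6i and Ly6d limit their precision.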
